A study of Oryza sativa with 8 samples.

Results

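The comparison set 4 RNA-seq libraries of rice root tips whose treatment label names calcium against the 4 whose label does not, with ethylene held as an additive factor. All 8 libraries of the series took part, 2 in each of 4 groups: control, calcium, ethylene, and calcium and ethylene. The libraries with calcium were calcium replicates 1 and 2 and calcium and ethylene replicates 2 and 3. Those without it were control replicates 1 and 2 and ethylene replicates 3 and 4. All came from the rice variety Dongjin, germinated in the dark for 2 days at 37 °C and then kept dark for 3 days at 28 °C. Ethylene, where given, was 2 ppm of gas injected into closed boxes, and CaCl2 was supplied at differing concentrations. The labels give neither those concentrations nor which groups stand for the low and which for the normal calcium of the study's design, so the calcium libraries are called by their label alone. No label says whether libraries of the same group are from different plants or cultures, and the spread behind each p-value may therefore be technical.

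In plants, calcium ions act as a second messenger: the calcium level inside the cell changes with many stimuli and is read by calcium-binding proteins such as calmodulin and calcium-dependent protein kinases. Ethylene is a gaseous hormone perceived by membrane receptors, and it inhibits the growth of rice roots in the dark. The study's title concerns rice ethylene receptors as calcium-permeable channels, and the calcium main effect asks which transcripts differ with the calcium supply whether or not ethylene was present. None of the 57359 feature IDs matched a RefSeq rice table of 39387 genes, so the IDs carry no gene name or function here. Markers of root tips could not be looked up for the same reason. Genes are therefore described in groups, and 4 IDs are followed in every library.

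Library totals ran from 19099091 to 25907083 counts. No pair of libraries agreed within counting noise, with a chi-square of at least 14.9 per degree of freedom, so none was counted as a repeat of another. Once the mean of each ethylene treatment had been taken out of log2 CPM (CPM being counts scaled to library size), the first component held 32.5% of the remaining variance and stood mainly for 1 library, ethylene replicate 4 at 111. The 3 other libraries without calcium lay at 19.2, 7.13 and -14.4 on it. The 4 calcium libraries lay at 6.25, -32.6, -55.7 and -40.6, so the sides overlapped between -14.4 and 6.25 when pooled. Within each ethylene treatment both calcium libraries lay below both others on it, at 6.25 against 7.13 for the nearest pair without ethylene. The second component, with 20.9%, placed control replicate 1 and calcium replicate 1 at -49.5 and -54.3, and control replicate 2 and calcium replicate 2 at 60.8 and 43.1. It thus set the libraries without ethylene apart by replicate number and not by calcium. No label says what that number marks.

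**Figure D1:**
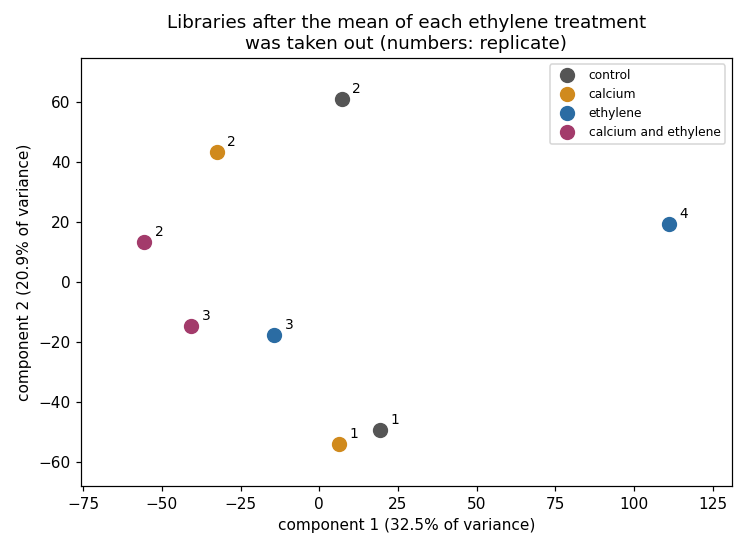
Scores of the 8 libraries on the first component (x axis) and the second component (y axis) of log2 CPM after the mean of each ethylene treatment was taken out; colours are the 4 groups and numbers the replicates. Ethylene replicate 4 stands at 111 on the first component, and the libraries without ethylene split by replicate number on the second.

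No gene passed the test of the calcium main effect: edgeR's quasi-likelihood test called 0 of 27008 genes (0%) with the adjusted threshold of 0.05, and its smallest adjusted p was 0.324. Before adjustment, 2894 genes had a p under 0.05, which is 10.7% of those tested, where 5% would be 1350 genes. Of these, 1827 (6.76% of those tested) were lower with calcium and 1067 (3.95%) were higher. The lower side became more prominent at smaller p-values, with 531 lower and 149 higher under 0.01 and 61 lower and 11 higher under 0.001. These counts take no account of multiple testing, and genes are not independent of each other: 1023 of the features tested (3.79%) shared only 2 lengths under the same chromosome number, without which edgeR again called 0. The counts changed with the library left out. They were smaller on both sides without ethylene replicate 4, calcium and ethylene replicate 2 or 3, calcium replicate 2 or control replicate 1. Without calcium replicate 1 or ethylene replicate 3 they were larger on both sides. Leaving out control replicate 2 gave fewer higher and more lower genes.

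Whether any gene was called depended on the tool, the filter on low counts and the libraries used. DESeq2 called 380 of the same 27008 genes, 329 lower and 51 higher, with no adjusted p given for 2619 of the 27008. The edgeR test without the filter called 91 of 35620 genes, 78 lower and 13 higher, and all 91 were among the 380. limma's voom with sample quality weights called 0 and had a lowest adjusted p of 0.0647. With the filter, edgeR called 25 genes without calcium replicate 1, all lower, 14 without control replicate 2, all lower, and 8 without ethylene replicate 3, of which 7 were higher.

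The 4 genes followed here had a mean of at least 5 CPM, and in each ethylene treatment both of their calcium libraries lay on the same side of both others. There were 1158 such genes on the higher and 1130 on the lower side. Without the limit on level, 5.42% of all genes tested lay above and 5.29% below in this way. None of the 1158 and 1130 genes was called by edgeR, so those with the lowest unadjusted p were taken, 2 in each direction. AGIS_Os06g010290 had the lowest p of all genes tested. It measured 136 and 96.9 CPM in the control libraries and 64.6 and 45.5 CPM in the calcium libraries. With ethylene it measured 310 and 301 CPM without calcium and 115 and 134 CPM with it. Every calcium library thus lay below both libraries without calcium of its ethylene treatment, and the calcium and ethylene libraries stood at about the level of the controls. The calcium main effect was -1.19 on the log2 scale (SE 0.16, 95% interval -1.54 to -0.84, edgeR adjusted p = 0.324), a level 2.28-fold lower. Ethylene raised this gene by 1.28 on the log2 scale (adjusted p = 0.000401 by edgeR).

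AGIS_Os07g007890 measured 38.2 and 27.5 CPM in control and 17.1 and 13.8 CPM in calcium. In ethylene it measured 35.4 and 32.9 CPM, and in calcium and ethylene 8.60 and 7.94 CPM. The calcium libraries lay below the others whether or not ethylene was given, with no overlap. The log2 fold change was -1.56 (SE 0.22, 95% interval -2.05 to -1.07, edgeR adjusted p = 0.324). It was -1.09 without and -2.04 with ethylene. The test of that difference gave an unadjusted p of 0.0146 and an adjusted p = 1 by edgeR. This gene was not called in the ethylene main effect (log2 fold change -0.41, adjusted p = 0.155 by edgeR). The calcium main effect of both lower genes was called by edgeR when control replicate 2 was left out, with an adjusted p = 0.0405 for AGIS_Os06g010290 and 0.033 for AGIS_Os07g007890. It was also called without calcium replicate 1, with an adjusted p = 0.0481 for both.

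On the higher side, AGIS_Os07g007920 measured 89.6 and 85.1 CPM in control and 128 and 159 CPM in calcium. In ethylene it measured 60.6 and 45.0 CPM, and in calcium and ethylene 106 and 91.3 CPM. The calcium libraries lay above the others in each ethylene treatment, while the ethylene log2 fold change of the gene was -0.63 (adjusted p = 0.00528 by edgeR). The calcium log2 fold change was 0.81 (SE 0.13, 95% interval 0.51 to 1.11, edgeR adjusted p = 0.324), or 1.75-fold.

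AGIS_Os05g037000 measured 12.4 and 12.5 CPM in control, 18.1 and 22.6 CPM in calcium, 5.79 and 5.93 CPM in ethylene, and 13.8 and 10.8 CPM in calcium and ethylene. Its levels in calcium and ethylene, at 12.3 ± 2.17 CPM (SD, n = 2), were close to those in control, at 12.4 ± 0.103 CPM. The calcium log2 fold change was 0.88 (SE 0.17, 95% interval 0.51 to 1.26, edgeR adjusted p = 0.324). The ethylene log2 fold change was -0.90 (adjusted p = 0.00285 by edgeR). DESeq2 and edgeR without the filter called all 4 genes. The 4 were picked for a low unadjusted p in these same counts. Low p-values in other fits of these counts, and 95% intervals clear of 0, therefore largely follow from the choice. DESeq2's adjusted p was 2.83e-08 for AGIS_Os06g010290, 5.09e-07 for AGIS_Os07g007890, 0.000257 for AGIS_Os07g007920 and 0.00248 for AGIS_Os05g037000. Without the filter edgeR gave 7.68e-05, 0.000368, 0.00692 and 0.0423 in the same order.

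**Figure D2:**
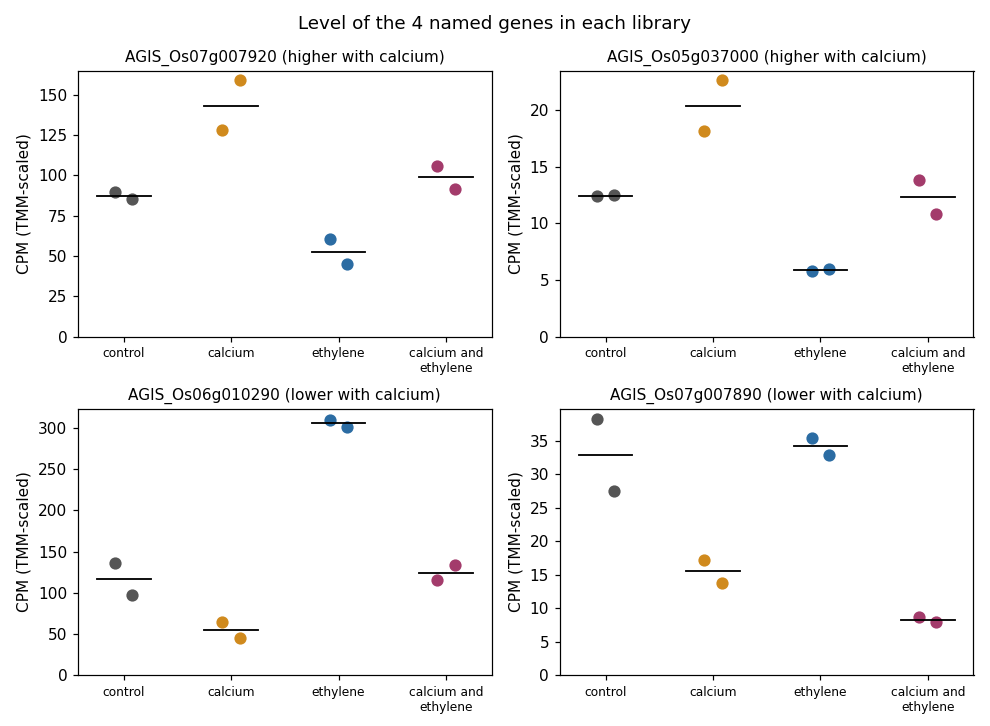
TMM-scaled CPM (y axis, from 0) of the 4 named genes in each library (points) of the 4 groups (x axis), with bars at the group means. In each ethylene treatment both calcium libraries lie above both others for AGIS_Os07g007920 and AGIS_Os05g037000 and below both for AGIS_Os06g010290 and AGIS_Os07g007890.

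Most genes at a moderate or high level were measured closely enough to limit the size of a calcium effect. Among 14293 genes whose mean reached 10 CPM, the 95% interval of the change lay inside 2-fold either way in 87.7%, and inside 1.5-fold in 59%. The median SE of these genes was 0.154 on the log2 scale, and the log2 fold change was -0.615 at the lower and 0.397 at the upper end of its central 90% of genes. The median size of the calcium change was 0.175 on the log2 scale, against 0.455 for the ethylene main effect in the same genes and the same fit. An estimate at least 2-fold lower with calcium was found in 187 of them and at least 2-fold higher in 24. In 102 of the 187 and 7 of the 24, the calcium libraries did not overlap the others in either ethylene treatment, against 5.29% below and 5.42% above over all genes tested. Picking genes for a 2-fold estimate itself favours such a separation.

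Low p-values were more frequent at higher levels. An unadjusted p under 0.05 was reached by 2.69% of genes under 1 CPM, 7.66% at 1 to 10 CPM, 14.1% at 10 to 100 CPM and 17.0% at 100 CPM or more. In the highest of these classes, 244 such genes were lower and 97 higher with calcium. The median SE dropped from 0.937 under 1 CPM to 0.135 at 100 CPM or more, so changes in low genes were not detectable at this depth unless large. Genes detected on only 1 side were few. There were 17 genes with 0 counts in all 4 calcium libraries and at least 20 counts summed over the others, and 22 with the reverse. Their highest sums were 54 and 74 counts. Among all genes at 0 on 1 side, 9 with 0 in the calcium libraries and 1 with 0 in the others had a count in all 4 libraries of the opposite side.

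**Figure D3:**
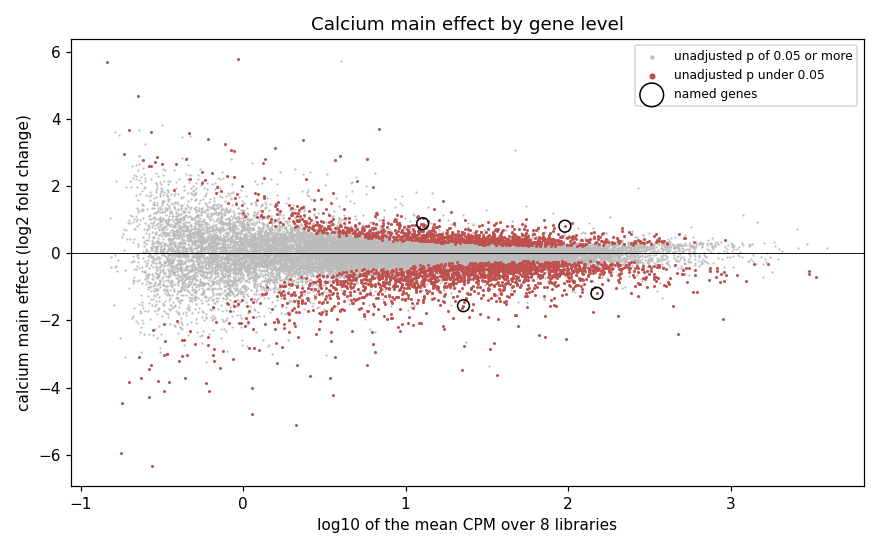
Calcium main effect as a log2 fold change (y axis) against the log10 of the mean CPM over the 8 libraries (x axis) for the 27008 genes tested; red points have an unadjusted p under 0.05 and circles mark the 4 named genes. Among the red points 1827 lie below and 1067 above 0, and none passed the adjusted threshold.

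The main effect averages 2 comparisons that share no library, calcium against control and calcium and ethylene against ethylene. In the 1827 genes lower at an unadjusted p under 0.05, the median log2 fold change was -0.503 without and -0.755 with ethylene. In the 1067 higher genes it was 0.424 and 0.528. Both sets were picked on the average of these values, so that the medians share a sign follows from the choice. By single comparison, 202 of the lower genes had a p under 0.05 in both ethylene treatments, 754 with ethylene only, 234 without ethylene only and 637 in neither. For the higher genes these numbers were 36, 291, 130 and 610. Of all genes tested, 3.84% had such a p in calcium against control and 7.69% in calcium and ethylene against ethylene. In all 27008 genes tested the numbers were 248 in both, 1828 with ethylene only, 789 without ethylene only and 24143 in neither. Picking on the average also favours a low p in the single comparisons. The interaction test of edgeR called 0 genes (0%) and had a lowest adjusted p of 1. At an unadjusted p under 0.05, which 2.38% of all genes reached in that test, were 77 of the lower and 12 of the higher genes.

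The direction in the separate libraries was also followed over all genes tested. Both calcium libraries lay above both others in both ethylene treatments in 1464 genes (5.42%) and below in both in 1430 (5.29%). Opposite sides were taken by 352 genes (1.30%) above without and below with ethylene, and by 481 (1.78%) below without and above with it. Genes on 1 side in both treatments were thus similar in number upwards and downwards, although more lower than higher genes had a low p. The median log2 fold change was -0.559 in the non-overlapping lower genes and 0.39 in the higher ones.

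**Figure D4:**
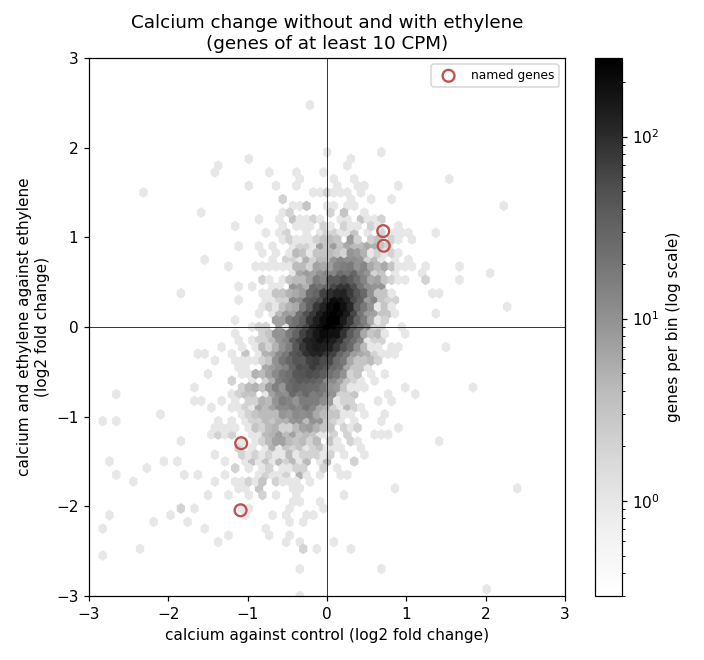
Log2 fold change of calcium against control (x axis) and of calcium and ethylene against ethylene (y axis) in 14293 genes of at least 10 CPM, shaded by the number of genes per bin on a log scale; circles mark the 4 named genes and 23 genes lie outside the axes. The 2 axes come from disjoint libraries, and the median size of the change was 0.164 without and 0.229 with ethylene.

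In the median, genes raised by ethylene were lower with calcium and genes lowered by ethylene were higher. The ethylene main effect of the same fit called 5703 genes higher (21.1%) and 5355 lower (19.8%). In the genes raised by ethylene the median calcium log2 fold change was -0.186. At an unadjusted p under 0.05, 975 of them (17.1%) were lower and 56 (0.982%) higher with calcium. Of all genes tested, 6.76% were lower and 3.95% higher at that threshold. In the genes lowered by ethylene the median was 0.146, and 80 (1.49%) were lower and 590 (11%) higher. Without the features of repeated length, which made up 507 of these, it was 0.171. A fit with a replicate block, in which the lowered genes were called anew, gave 0.0902. In the 15950 genes not called in ethylene the median was -0.00201, and over all genes tested -0.00194. Of those not called, 772 (4.84%) were lower and 421 (2.64%) higher with calcium at an unadjusted p under 0.05. The medians were similar in both ethylene treatments: -0.172 without and -0.189 with ethylene for the raised genes, and 0.124 and 0.164 for the lowered ones. These effects were estimated from the same 8 libraries, and a library that deviates along the ethylene response can enter both. The groups are therefore described and not tested.

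The medians of these groups were also taken in each library and set beside the spread between replicates. Each library was given the median deviation of a group's genes from the mean of the 4 libraries of the same ethylene treatment, in log2 CPM. For the genes raised by ethylene it was 0.167 and 0 in the control libraries, 0 and -0.148 in calcium, 0.0241 and 0.200 in ethylene, and -0.148 and -0.0289 in calcium and ethylene. A gene with 0 counts in all 4 libraries without ethylene has a deviation of 0 in each of them. The value of 0 in both control replicate 2 and calcium replicate 1 is therefore not read as measured agreement. With ethylene both calcium libraries lay below both others. For the genes lowered by ethylene it was -0.133 and 0.00724 in control, -0.0284 and 0.166 in calcium, 0.0267 and -0.158 in ethylene, and 0.131 and 0.0300 in calcium and ethylene. Here the calcium and control libraries overlapped. With ethylene both calcium libraries lay above both others, at 0.0300 against 0.0267 for the nearest pair. Without the features of repeated length, the values were -0.125 and -0.0138 in control and -0.0109 and 0.16 in calcium. The overlap was then absent, though the nearest pair lay close together. The SD between libraries of a group, pooled over the 4 groups, was 0.109 for the raised and 0.113 for the lowered genes. With 1 library left out and the groups called anew, the median calcium change ran from -0.276 to -0.133 in the raised genes. In the lowered genes it ran from 0.103 without ethylene replicate 4 to 0.220 without calcium replicate 1.

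**Figure D5:**
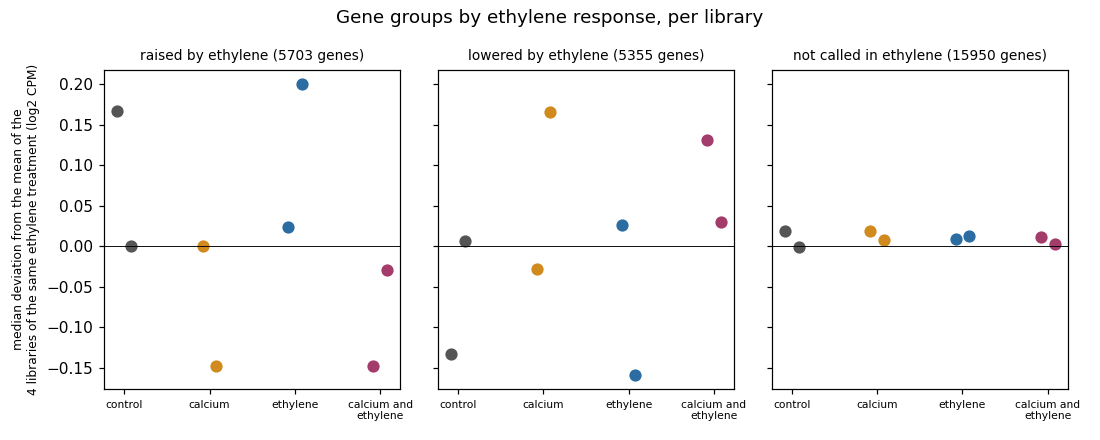
Median deviation in log2 CPM from the mean of the 4 libraries of the same ethylene treatment (y axis) for each library (points) of the 4 groups (x axis), in genes raised by ethylene, lowered by it or not called. Calcium libraries reach down to -0.148 among the raised genes and up to 0.166 among the lowered ones. The median of the genes not called stays between -0.00129 and 0.0194 in all 8 libraries. Changes in both directions can cancel in a median: 772 of these genes were lower and 421 higher with calcium at an unadjusted p under 0.05.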

How the data were processed

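The authors deposited raw read counts as whole numbers for 57359 features in each library, beside each feature's length in bases. The submitters' processing notes name fastp and featureCounts without versions. No aligner, genome build, annotation version or strand setting was given in the sources used here; near-identical, overlapping and antisense genes may therefore share reads. Groups and replicate numbers came from the labels.

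The analysis used edgeR 4.0.16, limma 3.58.1 and DESeq2 1.42.0 under R 4.3.3. The filterByExpr function (minimum count 10) kept 27008 genes, with 99.9% of all counts, and 21739 features were at 0 throughout. With TMM scaling, a robust quasi-likelihood model with ethylene and calcium as additive terms was fitted to all 8 libraries (common dispersion 0.0887, 5 residual degrees of freedom). Adjusted p-values are Benjamini-Hochberg values over all genes tested (threshold 0.05). A model with 4 group means gave the calcium change in each ethylene treatment and the interaction. CPM values are TMM-scaled, log2 CPM used a prior count of 2, and each SE is the size of the log2 fold change over the square root of its F statistic. The fit was tested on simulated data, and the outcome is not reported here. Named genes had to reach a mean of 5 CPM and show no overlap in either ethylene treatment; the rule ranked called genes by fold change and, where too few were called, took the lowest p, with 2 IDs in each direction as no ID has a name. The members and lists were chosen with earlier results of these data known. Amplified reads are not independent molecules, so counting error is a lower limit. Alternatives were RLE size factors, DESeq2, voom with sample weights, other filters and designs, the replicate number as a block, a minimum fold change of 1.5 and leaving out each library. Plots were made in matplotlib 3.10.9 (Python 3.11.15).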

Additional observations from a re-analysis of the deposited data

How the results depend on the processing

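The count of genes called in the calcium main effect was 0 with RLE size factors, voom with sample weights, filters of 1 CPM in 2 libraries or a mean of 10 CPM, ethylene left out of the model, 4 group means, the replicate block, a minimum fold change of 1.5 and without the features of repeated length. DESeq2 called 380 (51 higher, 329 lower) and edgeR with no filter on low counts 91 (13 higher, 78 lower). With 1 library left out the calls ranged from 0 to 25, 0 to 7 higher and 0 to 25 lower: 25 without calcium replicate 1, 14 without control replicate 2, 8 without ethylene replicate 3 and 0 otherwise, the lone library of a group being assumed to vary like the rest. Genes at an unadjusted p under 0.05 numbered 217 higher and 560 lower with ethylene left out, 105 and 432 against a minimum fold change of 1.5, and 551 to 1566 and 1101 to 2401 with 1 library left out. The cause was not tested. The dropping of these features and these unadjusted counts were chosen after seeing the data. Under 19 alternatives each, the 4 named genes kept their direction; the 2 lower genes were called under 4 and the 2 higher ones under 2, with adjusted p from 2.83e-08 to 1. These 4 genes were picked for calcium libraries on the same side in each ethylene treatment, so their constant direction largely follows from the choice. They were also picked for a low p, which favours calls in other fits of the same counts. With the replicate block, 730 genes were higher and 1512 lower at an unadjusted p under 0.05. The medians of genes raised and lowered by ethylene, called anew in that fit, were -0.177 and 0.0902. Same-numbered libraries were not treated as paired, since no label says what the number marks and the correlations of their deviations (0.180 between control and calcium, 0.104 and 0.107 of these with calcium and ethylene, 0.0154 between ethylene and calcium and ethylene) were not all above 0.1. The block left 2 residual degrees of freedom in place of 5. Only ethylene replicate 4 has the number 4, so the block fits that library exactly.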

Other observations

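Many features tested had the same length as others. Under chromosome number 9 in the ID, 512 features shared a length of 1774 bases and 511 a length of 3285 bases, and the files do not say what they are. All 1023 had enough counts to be tested, with median levels of 3.84 and 4.31 CPM. Of these, 467 of the shorter and 510 of the longer had a calcium log2 fold change below 0, against 50.2% of all genes tested. The median calcium log2 fold change was -0.151 in the shorter and -0.432 in the longer features. For the longer ones it was -0.137 without and -0.748 with ethylene. They took 0.519% and 0.722% of all counts in control, 0.483% and 0.653% in calcium, 0.351% and 0.415% in ethylene, and 0.245% and 0.354% in calcium and ethylene. The control and calcium libraries overlapped, and of the ethylene-treated libraries calcium and ethylene replicate 2 was lowest. Of the longer features 491 were called lower with ethylene by edgeR, against 16 of the shorter and 19.8% of all genes tested. Whether these features share reads was not tested, and they are not counted as 1023 separate results. Under the same chromosome number, the median calcium log2 fold change of 2475 features was -0.152, and of the 1452 left without them it was 0.00917.

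Longer genes had more low p-values on the higher side. Among genes longer than 2494 bases, 348 (5.16%) were higher and 355 (5.26%) lower with calcium at an unadjusted p under 0.05. Of all genes tested, 3.95% were higher and 6.76% lower. Among the similarly many genes shorter than about 1158 bases, 209 (3.1%) were higher and 441 (6.53%) lower. The median calcium log2 fold change was 0.0302 in the longest and -0.0195 in the shortest of these genes, and the median levels were 18.5 and 4.59 CPM. The part of level in this difference was not tested.

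The 380 genes called by DESeq2 included 196 raised and 39 lowered by ethylene, and 332 whose calcium libraries did not overlap the others in either ethylene treatment. Over all genes tested, 21.1% were raised and 19.8% lowered by ethylene and 10.7% did not overlap, and calling a gene for calcium itself favours no overlap. Their median level was 27.3 CPM and their median size of change 1.02 on the log2 scale.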
